A study of Homo sapiens with 9 samples.

Results

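The domains of H3K9me3 on chromosome 18 were described along the chromosome in hTERT RPE-1 clones that overexpress lamin B1 fused to mCherry or mCherry alone. All domains that the 8 deposited lists place on chromosome 18 were taken, 1885 of 60138 domains in all lists together, and no measured value entered the choice. A domain is a stretch that the authors' caller listed as enriched for H3K9me3 over input, and each library has its own list. hTERT RPE-1 is an established cell line from human retinal pigment epithelium that carries the telomerase gene, and Cut&Run is an assay in which a nuclease tethered to an antibody releases the DNA around a histone mark for sequencing.

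The LmnB1 clones LmnB1_16 and LmnB1_6 overexpressed mCherry-LmnB1, and the mCherry clones mCherry_3 and mCherry_4 overexpressed mCherry. Cells of both constructs received doxycycline at 0.05 ug/mL for 24 hours and grew in medium with hygromycin B, so the drug and the fluorescent protein were shared by both groups. Each clone has 2 biological replicates, which gives 4 LmnB1 and 4 mCherry libraries, and 1 input sample from wild-type cells completes the 9 samples. Each line is 1 clone, so a property of a clone and an effect of its construct can be separated only by whether the other clone shares it. The lists hold no expression, so neither the level of LmnB1 nor the identity of the cells could be checked in them.

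H3K9me3 is the mark of constitutive heterochromatin. It is bound by HP1 proteins, it keeps repeats and lineage-restricted genes silent, and much of it lies against the nuclear lamina, the filament layer of lamins under the inner nuclear membrane. Chromosome 18 is the textbook example of a gene-poor chromosome that sits at the nuclear periphery in many human cell types, whereas the gene-rich chromosome 19, close to it in size, sits in the nuclear interior. In the gene table used here chromosome 18 held 270 protein-coding genes over 80.2 Mb, or 3.36 genes per Mb, the third lowest density of 24 chromosomes, against 24.8 genes per Mb on chromosome 19.

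The promoters below, each from 250 bases before to 50 bases after the outermost listed gene start, are shown because they lie in the blocks that the results turn on. They come from RefSeq (GRCh38.p14), run 5′ to 3′ along the gene, and have every CG dinucleotide in capitals. SALL3, a zinc finger transcription factor of development, had its promoter in a domain in both LmnB1_16 libraries and no other. AQP4, the aquaporin water channel of astrocytes, had it in both mCherry_3 libraries and no other. CDH7, a classical cadherin, had it in every library except LmnB1_6 replicate 2. DCC, the netrin receptor that guides axons, had it in LmnB1_16 replicates 1 and 2, LmnB1_6 replicate 1, mCherry_3 replicate 2 and mCherry_4 replicate 1.
SALL3, chr18:78979568-78979867, plus strand: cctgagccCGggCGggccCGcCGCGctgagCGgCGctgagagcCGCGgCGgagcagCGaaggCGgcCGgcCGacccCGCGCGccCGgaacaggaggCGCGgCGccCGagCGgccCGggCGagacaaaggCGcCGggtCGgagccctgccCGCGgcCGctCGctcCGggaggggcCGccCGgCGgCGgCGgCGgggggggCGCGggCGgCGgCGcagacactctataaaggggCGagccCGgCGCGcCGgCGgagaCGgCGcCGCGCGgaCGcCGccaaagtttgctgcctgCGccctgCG
AQP4, chr18:26865754-26866053, minus strand: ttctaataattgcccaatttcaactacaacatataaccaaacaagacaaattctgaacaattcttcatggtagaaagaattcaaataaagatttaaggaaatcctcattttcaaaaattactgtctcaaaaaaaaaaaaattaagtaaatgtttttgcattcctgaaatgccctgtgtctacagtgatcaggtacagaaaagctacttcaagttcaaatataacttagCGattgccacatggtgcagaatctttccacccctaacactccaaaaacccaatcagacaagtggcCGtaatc
CDH7, chr18:65750002-65750301, plus strand: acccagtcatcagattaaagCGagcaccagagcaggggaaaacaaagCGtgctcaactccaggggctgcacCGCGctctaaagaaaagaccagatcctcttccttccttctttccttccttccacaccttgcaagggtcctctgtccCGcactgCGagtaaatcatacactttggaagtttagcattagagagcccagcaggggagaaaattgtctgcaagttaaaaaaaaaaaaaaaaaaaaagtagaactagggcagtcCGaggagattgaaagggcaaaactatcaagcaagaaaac
DCC, chr18:52339947-52340246, plus strand: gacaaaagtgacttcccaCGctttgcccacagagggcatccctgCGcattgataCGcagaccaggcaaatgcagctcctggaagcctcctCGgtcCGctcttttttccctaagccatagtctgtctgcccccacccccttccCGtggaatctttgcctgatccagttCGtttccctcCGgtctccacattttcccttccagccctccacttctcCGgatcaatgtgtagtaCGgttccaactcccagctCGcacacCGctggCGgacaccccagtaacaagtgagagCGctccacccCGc

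The mature miRNAs below stand for hairpins inside the blocks, with the seed (bases 2 to 8) in capitals, again from RefSeq (GRCh38.p14). MIR3976 was the 1 hairpin of 31 on the chromosome that lay in a domain in all 8 libraries. MIR302F lay in a domain in both LmnB1_6 libraries and no other. MIR4317 and MIR4528, the second of them inside DCC, lay in a domain in every library except LmnB1_6 replicate 2. The 4 seeds differ from each other.
hsa-miR-3976, chr18:5840702-5840725, plus strand: uAUAGAGAgcaggaagauuaaugu
hsa-miR-302f, chr18:30298936-30298952, plus strand: uAAUUGCUuccauguuu
hsa-miR-4317, chr18:6374399-6374415, minus strand: aCAUUGCCagggaguuu
hsa-miR-4528, chr18:53237156-53237177, plus strand: uCAUUAUAuguaugaucuggac

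Before any comparison, 1 library and 1 pair need naming. LmnB1_6 replicate 2 covered 3.19 Mb of chromosome 18, and its replicate 1 covered 23.4 Mb, so values are given with and without replicate 2. The counts of mCherry_3 replicates 1 and 2 were set side by side over the 229 domains whose start and end match, and a chi-square test found no difference beyond sampling noise (chi-square over its degrees of freedom of 1.08, p = 0.197). The pairs of the other clones did (p of 0.038 in LmnB1_16, 0.000368 in LmnB1_6 and 0.0162 in mCherry_4), although the ratio of LmnB1_16, over 648 domains, was close to it at 1.10. The mCherry_3 pair therefore entered as its mean and counted as 1 sample, leaving 4 LmnB1 and 3 mCherry samples. This choice sets the n and the smallest p given below. It rests on a p that depends on the number of domains compared, and domains with other ends were not compared. Outside the matched domains the pair could differ, with 0 and 100% of AKAIN1 and 96.1% and 4.24% of CBLN2 covered. H3K9me3 reads inside all listed domains of a library ran from 4467294 to 10321442 with LmnB1 and from 2855378 to 6959349 with mCherry. Relative to the input they share, depth was 0.880 to 1.01 with LmnB1 and 0.421 to 0.859 with mCherry, so each LmnB1 library was deeper than each mCherry library, and depth and construct cannot be told apart. A stretch missing from a list is not shown to lack the mark, because every list starts just above a log2 enrichment of 0.6.

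Along the chromosome, H3K9me3 was concentrated in blocks. In bins of 500 kb, 15 runs were over 50% covered on average in the 7 libraries other than LmnB1_6 replicate 2. At finer scale the lists were more broken up and less alike. Joined over all 8 libraries they gave 220 separate stretches with a median of 14 kb. Of the bases listed in any of the 7 libraries, 32.8% were listed in all 7. Domains began at 102001 and ended at 80096000. The longest stretch with neither a domain nor a gene ran from 15411001 to 20572000, taken here as the centromeric gap. Windows of 5 Mb were fullest from 65 to 75 Mb on the long arm. Between 65 and 70 Mb the covered percent of LmnB1_16 was 56.5 and 55.4 and that of LmnB1_6 was 52.8 and 9.58, against 56.3 and 54.1 for mCherry_3 and 51.3 and 45.1 for mCherry_4. Only LmnB1_6 replicate 2 lay apart there. From 45 to 50 Mb, a window with 28 protein-coding genes, the covered percent ran from 0 to 2.76 in the LmnB1 libraries and from 0.34 to 2.5 in the mCherry libraries, and from 55 to 60 Mb, with 20 genes, it ran from 0 to 2.48 and from 0.4 to 1.92.

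**Figure D1:**
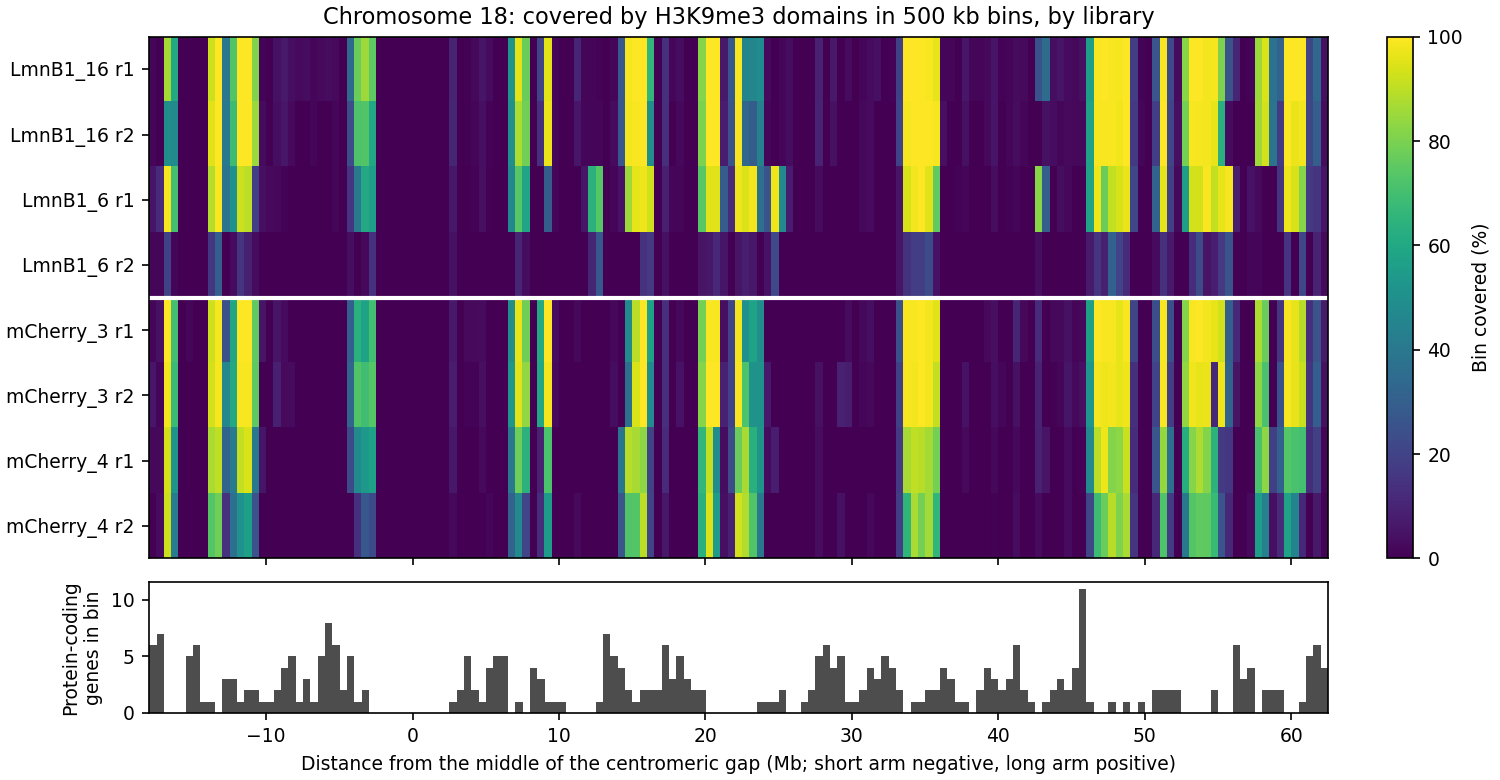
Percent of each 500 kb bin of chromosome 18 covered by H3K9me3 domains (colour) in the 4 LmnB1 libraries (top rows) and the 4 mCherry libraries (bottom rows), with the number of protein-coding genes overlapping each bin below. The x axis is the distance from the middle of the centromeric gap in Mb. At this bin size most blocks stand at the same places in 7 libraries and are faint in LmnB1_6 replicate 2. LmnB1_6 replicate 1 lacks the block in the bins from 75500001 and 76000001.

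The blocks were fullest where genes are few. The empty bins from 15500001 to 20500000, inside the centromeric gap, were left out of this count. Of the other 37 bins of 500 kb without a protein-coding gene, 22 were over 50% covered on average in the 7 libraries other than LmnB1_6 replicate 2, and the median of the 37 was 66.0%. Of 65 bins with 1 or 2 genes, 23 were over 50% covered and the median was 10.7%. Of 49 bins with 3 or more genes, 1 was over 50% covered and the median was 1.17%. These bins are neighbours on 1 chromosome and are not independent, so the order is a description. Bins over 50% covered formed 15 runs, the longest of 3 Mb from 70500001 to 73500000.

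The 5 longest merged domains, in which the lists of all libraries are joined, held few genes, several of them known from the nervous system. The longest spanned 2.90 Mb from 64207001 to 67106000 around CDH7 and CDH19, cadherins that join cells in the neural lineage. It was covered over 97.8% and 97.7% in LmnB1_16, 92.4% and 16.3% in LmnB1_6, against 98.6% and 95.7% in mCherry_3, and 86.8% and 75.4% in mCherry_4. The next, 2.67 Mb from 51355001 to 54021000, held DCC and LOC124904304. In the same order the LmnB1 libraries had 96.9%, 97.9%, 87.9% and 15.8% of it covered, and the mCherry libraries 96.9%, 95.0%, 84.3% and 75.3%. The block around CBLN2, which encodes a secreted organiser of synapses, and NETO1, an auxiliary subunit of glutamate receptors, ran 2.21 Mb from 70752001 to 72966000. The short-arm block from 5689001 to 7397000 (1.71 Mb) held TMEM200C, L3MBTL4, ARHGAP28, LAMA1 and LRRC30. The block nearest the long-arm end, from 77312001 to 79014000 (1.70 Mb), held SALL3. In each of the 5, LmnB1_6 replicate 2 was the lowest library, at 8.61% to 16.3%, and the other 7 libraries ran from 37.1% to 100%.

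Outside the centromeric gap, the stretches without domains held genes. Of 9 such stretches of at least 1 Mb that no library listed, the longest ran 2.09 Mb from 43607001 to 45693000 and overlapped SETBP1 and the urea transporter gene SLC14A2. The stretch from 30877001 to 31965000 (1.09 Mb) held all desmocollins and desmogleins, the cadherins of desmosomes in epithelia, with the transthyretin gene TTR. The stretch from 27914001 to 29039000 (1.13 Mb) overlapped CDH2, the N-cadherin gene. That from 23279001 to 24736000 (1.46 Mb) held 11 genes, among them NPC1 for cholesterol export and the laminin gene LAMA3.

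The length of chromosome 18 under H3K9me3 domains overlapped between the constructs. LmnB1_16 had 24.8 and 23.1 Mb under domains and LmnB1_6 had 23.4 and 3.19 Mb, against 23.2 and 23.04 Mb for mCherry_3 and 19.7 and 15.5 Mb for mCherry_4. LmnB1 libraries averaged 18.6 ± 10.3 Mb and mCherry libraries 19.4 ± 3.85 Mb (SD, n = 4 and 3), a difference of -0.793 Mb (two-sided exact permutation p = 0.971). Without LmnB1_6 replicate 2 the LmnB1 mean was 23.8 ± 0.923 Mb and the difference turned to 4.35 Mb (exact permutation p = 0.2). On the short arm the domains covered 5.19, 4.67, 4.23 and 0.603 Mb in the LmnB1 libraries and 4.81, 5.04, 4.07 and 2.68 Mb in the mCherry libraries, and on the long arm 19.6, 18.4, 19.1 and 2.59 Mb and 18.4, 17.999, 15.6 and 12.8 Mb. Both arms gave overlapping groups (exact permutation p of 0.971 and 0.914). The smallest p these 7 samples allow is 0.0571, and over whole clones it is 0.3333. By covered length, 0 of the 24 chromosomes passed the adjusted exact permutation test in either direction (0% called).

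Taken as a share of the bases covered in each library's own list, chromosome 18 held less in every LmnB1 library. It held 4.07% and 4.33% of the covered bases in LmnB1_16 and 3.61% and 0.894% in LmnB1_6. In mCherry_3 it held 4.40% and 4.37%, and in mCherry_4 4.58% and 4.84%. The groups did not overlap, with means of 3.23 ± 1.58% with LmnB1 (SD, n = 4) and 4.60 ± 0.228% with mCherry (SD, n = 3), a difference of -1.37 points at the smallest p that the design allows (exact permutation p = 0.0571, adjusted p = 0.314 over 11 measures). With all 8 libraries taken singly it was -1.32 points (exact permutation p = 0.0286, adjusted p = 0.236). Without LmnB1_6 replicate 2 the difference was -0.594 points, again at the smallest p then possible (exact permutation p = 0.1, adjusted p = 0.183). Among 24 chromosomes this was the 1 with all LmnB1 shares below all mCherry shares (4.17%), while 3 had them all above (12.5%).

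The gap between the groups was wider when the lists were brought to equal covered length. When every list was cut, from the most enriched domain down, to the covered length of the shortest list (about 320 Mb in each library), LmnB1_16 kept 6.77 and 8.82 Mb on chromosome 18 and LmnB1_6 kept 1.12 and 2.56 Mb. On the mCherry side, mCherry_3 kept 12.4 and 11.6 Mb and mCherry_4 kept 14.9 and 15.5 Mb. LmnB1 libraries averaged 4.82 ± 3.58 Mb and mCherry libraries 14.1 ± 1.88 Mb (SD, n = 4 and 3), a difference of -9.28 Mb at the smallest possible p (exact permutation p = 0.0571, adjusted p = 0.126). As a share, chromosome 18 then held 1.51 ± 1.12% of the covered bases with LmnB1 and 4.41 ± 0.586% with mCherry, a ratio of 0.342 (LmnB1 over mCherry). Chromosome 16 was the other chromosome with all LmnB1 shares below all mCherry shares at equal covered length (2 of 24, 8.33%). The ratio of means was lower still on chromosome X, at 0.168 against 0.342 on chromosome 18, and in the deposited lists at 0.643 against 0.702, but the groups overlapped on chromosome X. Whole domains were kept or dropped, so a long domain just under the limit left as a unit, and the limit fell at a log2 enrichment from 0.62 to 1.10 in the LmnB1 libraries and from 0.60 to 0.86 in the mCherry libraries. The shortest list, that of mCherry_4 replicate 2, was not cut. LmnB1_16 was cut from 610 and 534 Mb and LmnB1_6 from 646 and 357 Mb, against 529 and 528 Mb in mCherry_3. The part of these unequal cuts in the wider gap was not tested.

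**Figure D2:**
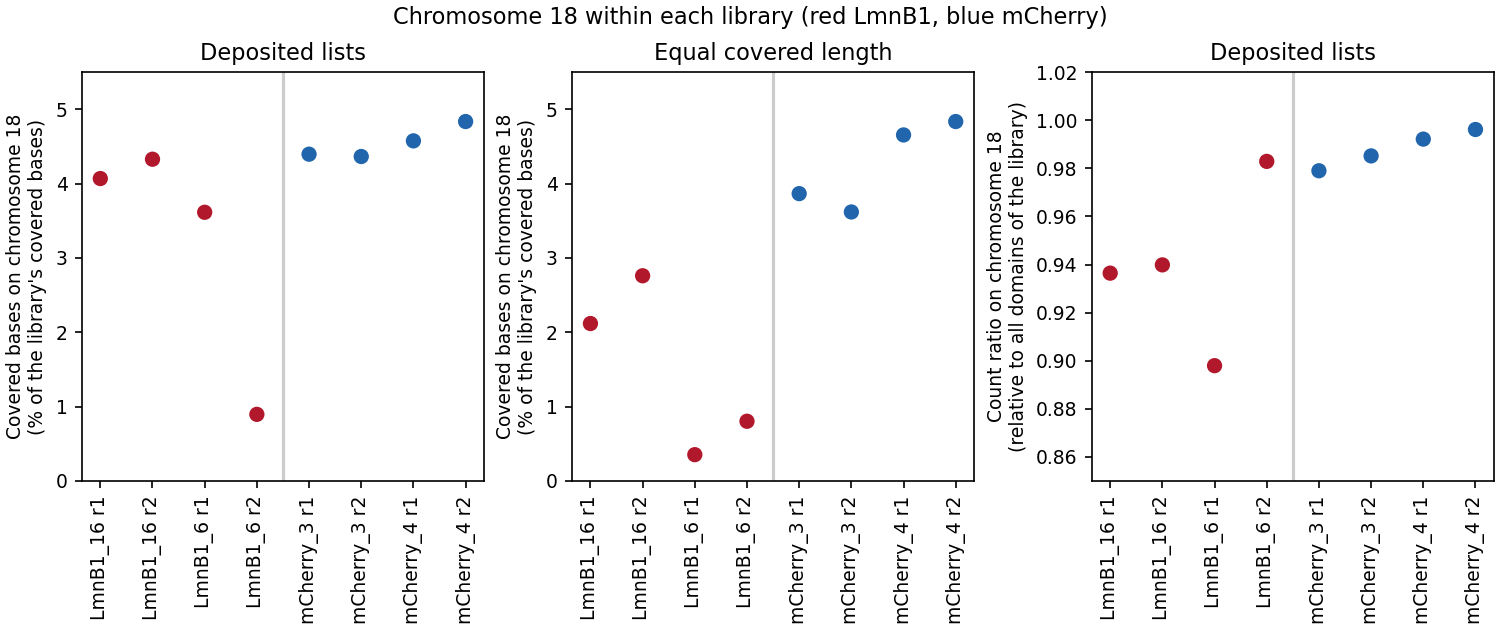
Chromosome 18 in each library, LmnB1 in red on the left of each panel and mCherry in blue on the right: its share of the library's covered bases in the deposited lists (left panel), the same at equal covered length (middle), and its count ratio relative to all domains of the library (right, axis from 0.85). Each point is 1 library. In the left and middle panels all LmnB1 points lie below all mCherry points.

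Enrichment on chromosome 18 was below that of the rest of the genome within every library. H3K9me3 reads per kb of domain were 15.3 and 15.5 in LmnB1_16, 13.7 and 12.1 in LmnB1_6, against 12.5 in both mCherry_3 libraries, and 6.40 and 11.7 in mCherry_4. The ratio of H3K9me3 to input counts was 1.81, 1.83, 1.62 and 1.45 in the LmnB1 libraries and 1.48, 1.48, 0.755 and 1.41 in the mCherry libraries. Both scale with the depth of the library, and mCherry_4 replicate 1, with the lowest ratio, was the shallowest. A ratio relative to all domains of the same library cancels the scale of its counts. Any part of depth in which domains were listed remains. On that relative scale the ratio was 0.936 and 0.940 in LmnB1_16, 0.898 and 0.983 in LmnB1_6, against 0.979 and 0.985 in mCherry_3, and 0.992 and 0.996 in mCherry_4. It averaged 0.939 ± 0.0348 with LmnB1 (SD, n = 4) and 0.990 ± 0.00725 with mCherry (SD, n = 3), a difference of -0.0509 (exact permutation p = 0.114, adjusted p = 0.314), and LmnB1_6 replicate 2 overlapped the mCherry range. Without that library the difference was -0.0654 at the smallest possible p (exact permutation p = 0.1).

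Set against other chromosomes of the same library on the log2 scale, the pooled count ratio of chromosome 18 was lower than that of all other chromosomes in all 7 samples, by 0.06 on average (sign-flip exact permutation p = 0.0156, adjusted p = 0.0703 over 9 comparisons). Against chromosome 19 the mean difference was -0.12, again in all 7 samples (sign-flip exact permutation p = 0.0156, adjusted p = 0.0703). Against chromosome 20 it was -0.04 (sign-flip exact permutation p = 0.125). Among the 22 autosomes, ordered from the lowest pooled ratio, chromosome 18 came in place 2 in both LmnB1_16 libraries, 1 and 3 in LmnB1_6, against 4 in both mCherry_3 libraries and 6 in both mCherry_4 libraries. In LmnB1_6 replicate 1 it lay 0.16 below its library on the log2 scale, and the next autosome, chromosome 16, lay 0.09 below. In LmnB1_6 the chromosome was thus the lowest autosome in replicate 1 and in place 3 from the lowest in replicate 2.

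**Figure D3:**
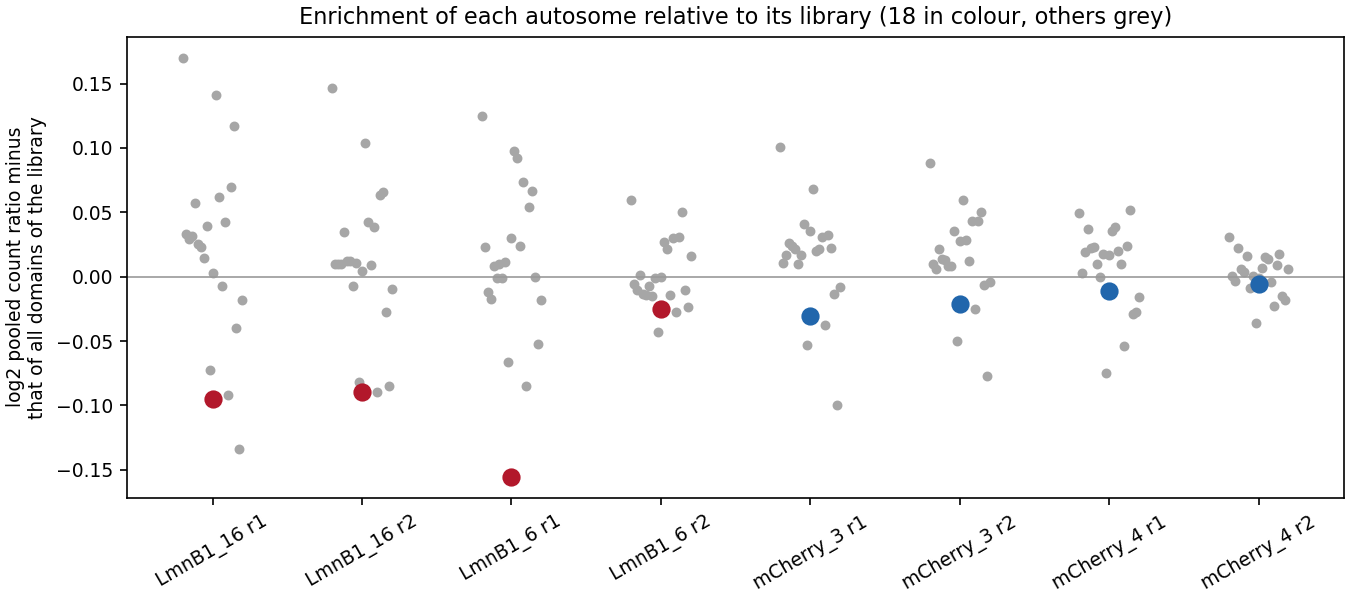
Pooled log2 count ratio of each autosome minus that of all domains of the same library (y axis, log2), with chromosome 18 in red for LmnB1 and blue for mCherry and the other 21 autosomes in grey. Chromosome 18 lies at the low edge in LmnB1_16 and below every other autosome in LmnB1_6 replicate 1, and nearer the middle in mCherry_4.

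Although its enrichment was low, chromosome 18 was among the most widely covered. Domains covered 30.9%, 28.8%, 29.1% and 3.97% of its gene span (from its first to its last gene) in the LmnB1 libraries and 29.0%, 28.7%, 24.5% and 19.3% in the mCherry libraries. Averaged over the samples it ranked first of 24 chromosomes, and among the 22 autosomes it ranked first in 6 libraries, in place 2 in LmnB1_6 replicate 1 and last in LmnB1_6 replicate 2. The mean was 23.6 ± 9.52% for chromosome 18 and 15.6 ± 3.94% for all other chromosomes (SD, n = 7), higher on chromosome 18 in 6 of 7 samples (sign-flip exact permutation p = 0.0313, adjusted p = 0.0938). Without LmnB1_6 replicate 2 it was 26.9 ± 4.31% and 16.3 ± 3.89%, higher in 6 of 6 (sign-flip exact permutation p = 0.0313, adjusted p = 0.0469). The gene-rich chromosome 19 was covered nearly as widely, 0.652 points less with all samples (sign-flip exact permutation p = 0.844) and 2.98 points less without that library (adjusted p = 0.0469, sign-flip exact permutation).

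Domain lengths varied from clone to clone, and the longest domains lay in different blocks. Median length was 13 and 22 kb in LmnB1_16, 47 and 22 kb in LmnB1_6, against 62 and 41.5 kb in mCherry_3, and 33 and 31 kb in mCherry_4 (26.0 against 38.6 kb on average, exact permutation p = 0.286). The numbers of domains were 212, 169, 289 and 120 in the LmnB1 libraries and 158, 168, 424 and 345 in the mCherry libraries (exact permutation p = 0.229). Both LmnB1_16 libraries had their longest domain over DCC, at 2023 and 1931 kb. The longest of LmnB1_6 was 651 kb inside DCC in replicate 1 and 152 kb in no gene in replicate 2. The longest were 1181 and 1175 kb in mCherry_3 and 267 and 271 kb in mCherry_4. Domains over 100 kb held 88.6% and 87.5% of the covered bases in LmnB1_16, 66.3% and 4.77% in LmnB1_6, against 87.8% and 87.6% in mCherry_3, and 25.4% and 28.4% in mCherry_4. The clones of 1 construct thus differed widely from each other in these lengths.

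LmnB1_6 replicate 2 covered a length on chromosome 18 equal to 13.6% of that of its replicate 1. For the other autosomes the same percent ran from 35.6 on chromosome 10 to 77.0 on chromosome 13, with a median of 62.9, and on chromosome X it was 22.8. Replicate 2 held 93.1% of the replicate 1 length on chromosome 18 in LmnB1_16, 99.1% in mCherry_3 and 78.7% in mCherry_4, each close to that clone's median over the other autosomes (89.5%, 99.9% and 78.6%). Over the genome LmnB1_6 replicate 2 covered 357 Mb, of which 3.19 Mb on chromosome 18, and mCherry_4 replicate 2 covered 320 Mb, of which 15.5 Mb on chromosome 18. The part of list length in this was not tested. What LmnB1_6 replicate 2 still listed lay where other libraries had blocks, with 94.2% of it inside domains of replicate 1 and 99.7% inside those of any other library. The Jaccard index, shared bases over bases in either replicate, was 0.891 in LmnB1_16, 0.128 in LmnB1_6, against 0.872 in mCherry_3 and 0.581 in mCherry_4 on chromosome 18. In the same order it was 0.817, 0.543, 0.843 and 0.579 on the other chromosomes.

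**Figure D4:**
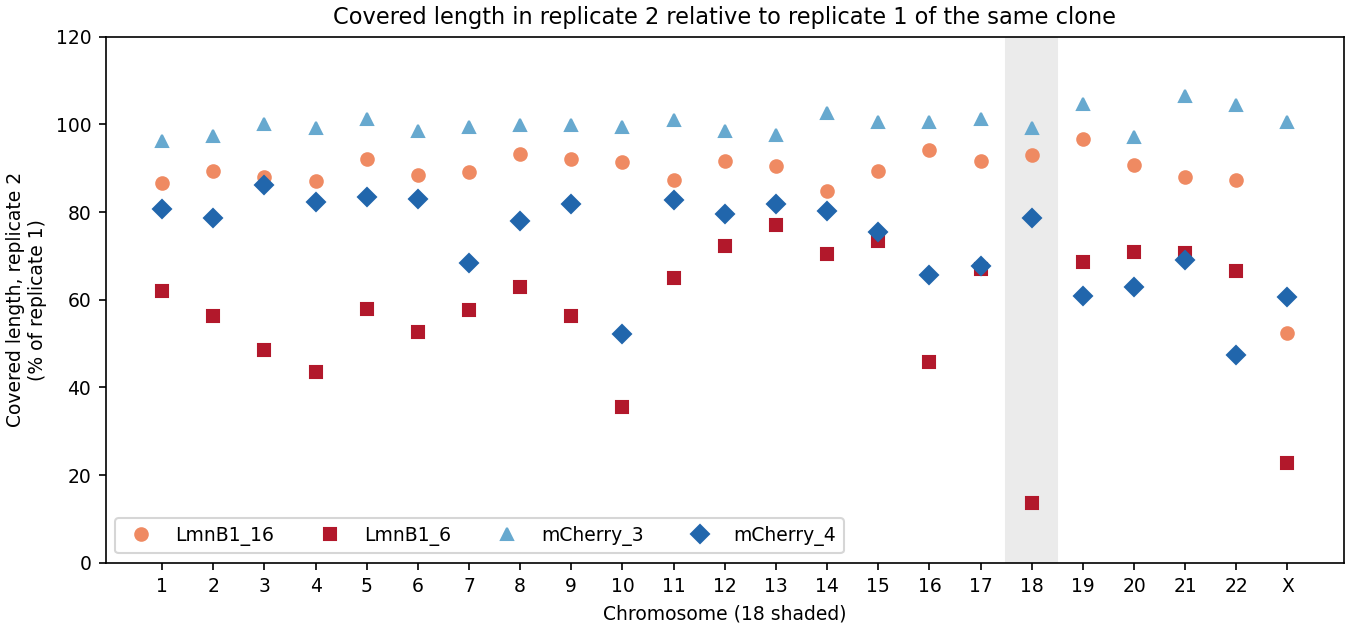
Covered length in replicate 2 as a percent of that in replicate 1 of the same clone (y axis), for chromosomes 1 to 22 and X, with 1 marker per clone and chromosome 18 shaded. The LmnB1_6 value on chromosome 18, 13.6%, is the lowest point, and the other 3 clones lie between 78.7% and 99.1% there.

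The domains of LmnB1_6 replicate 1 on chromosome 18 had a lower median enrichment than those on its other chromosomes. Their median log2 enrichment was 0.77, against 0.89, and 21.8% of them were under 0.7, against 16.5%. On chromosome 18 the percent under 0.7 was 7.55 and 17.8 in LmnB1_16, 14.6 and 20.8 in mCherry_3, and 12.0 and 40.6 in mCherry_4. In replicate 2 of LmnB1_6 the median was 0.68 on chromosome 18 and 0.70 elsewhere, with 58.3% and 49.0% of domains under 0.7. In mCherry_4 replicate 2, which covered 15.5 Mb of chromosome 18, the median was 0.72 in both and 40.6% and 40.7% were under 0.7. Where replicate 2 of LmnB1_6 still listed the chromosome, the domains of replicate 1 had a median of 0.81, and where it did not they had 0.76. On the other autosomes these were 0.99 and 0.86. The part of the threshold in the shorter list was not tested.

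Of 30.1 Mb of chromosome 18 listed in any library, 37.6% of its gene span, 1.62 Mb (5.38%) was listed in all 8, against 20.9% on the other chromosomes. Without LmnB1_6 replicate 2 it was 9.88 Mb (32.8%), against 29.0%. The 1.62 Mb fell into 120 stretches with a median of 12 kb. The longest were 47 kb from 4792001 to 4839000, 44 kb from 65593001 to 65637000, 41 kb from 69087001 to 69128000 and 40 kb from 4711001 to 4751000, none of them in a protein-coding gene. After them came 35 kb from 51627001 to 51662000 and 33 kb from 69513001 to 69546000, inside DOK6, an adaptor of receptor tyrosine kinases in neurons. A further 470 stretches, 8262 kb, were in every list except that of LmnB1_6 replicate 2, the longest of 138 kb from 71873001 to 72011000 and, in DLGAP1, a scaffold protein gene of synapses, of 101 kb from 4084001 to 4185000.

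In the deposited lists, little of the chromosome was listed throughout 1 construct and nowhere in the other. Lengths of these classes on the other chromosomes are not given here. Neither the short lengths nor their changes under other settings are therefore shown to be particular to chromosome 18. In all LmnB1 libraries and no mCherry library there was 1 stretch of 21 kb, from 39005001 to 39026000, with no protein-coding gene, at the edge of the block from 37825001 to 39092000. In all mCherry libraries and no LmnB1 library there were 3 stretches of 5 kb together, from 1805001 to 1807000, 41367001 to 41368000 and 62693001 to 62695000. This length depended on the processing, at 715 kb at equal covered length, 669 kb with the highest-scoring 50% of each list and 175 kb without LmnB1_6 replicate 1, while that in LmnB1 alone was 0 kb in the first and second of these. Without LmnB1_6 replicate 2 the LmnB1 stretches numbered 20 with 108 kb. LmnB1_16 alone had 48 stretches of 377 kb, the longest of 38 kb over SALL3 from 78972001 to 79010000. Both LmnB1_6 libraries alone shared 16 stretches of 358 kb, the longest of 76 kb from 30684001 to 30760000. In mCherry_3 alone there were 18 stretches of 227 kb, with 66 kb over AQP4 from 26833001 to 26899000, and in mCherry_4 alone 4 stretches of 33 kb.

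Of the 8 libraries LmnB1_6 replicate 1 listed the most that no other clone listed, 2494 kb in 64 stretches. The same measure was 824 and 573 kb in LmnB1_16 and 367 kb in LmnB1_6 replicate 2, against 476 and 541 kb in mCherry_3, and 255 and 115 kb in mCherry_4. LmnB1_6 replicate 1 also had the longest list over the genome, at 646 Mb. Values of this measure on other chromosomes are not given here, so a trait particular to chromosome 18 is not shown. Among the stretches of LmnB1_6 replicate 1 were 493 kb from 30286001 to 30779000, which holds MIR302F, and 265 kb from 42743001 to 43008000 in RIT2, a small GTPase gene of neurons. RIT2 was covered over 75.4% and 7.46% in LmnB1_6 and 0 in the other 6 libraries. The 500 kb bin from 30500001, next to DSC3, was covered over 73.6% and 27.4% in LmnB1_6, 0.8% and 1.6% in LmnB1_16 and 0 in the mCherry libraries. It was thus in both LmnB1_6 libraries although replicate 2 listed little of the blocks that other clones share. In the other direction, 1211 kb in 152 stretches was in every library except those of LmnB1_6, several of them between 75596001 and 76210000, and 44 kb in CHST9. A similar length, 1254 kb in 164 stretches, was missing from both mCherry_4 libraries and in the lists of all others, LmnB1_6 replicate 2 set aside. The bin from 75500001 was covered over 84.8% and 85.8% in LmnB1_16, 2.6% and 1.4% in LmnB1_6, against 87.6%, 83%, 71.2% and 56% in the mCherry libraries. There both LmnB1_6 libraries were low. Replicate 1 was also low in the bins from 27000001 (29.6%) and 7000001 (18.6%), where the mCherry libraries ran from 55% to 100% and from 25.4% to 75.6%.

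In limma fitted on all bins of the genome, 0 of 73 chromosome 18 bins were called higher and 0 lower with LmnB1, against 0.236% and 0% of 2116 bins called in all (adjusted p below 0.05). At an unadjusted p below 0.05 there were also 0. The median difference was -5.20 points over the 73 bins and 4.23 over all bins. Its sign rested on LmnB1_6 replicate 2, without which it was 7.29 over 74 bins, 62 of them positive, and 8.28 over all bins. The bins with the largest differences in limma were those from 42500001 (27.6 points), 30500001 (25.9) and 34000001 (22.2) upward and from 1000001 (-31.8), 40500001 (-31.2) and 75500001 (-28.9) downward, each at a limma adjusted p of 1.0. The bin from 40500001 shows the spread within LmnB1, at 45% and 33.4% in LmnB1_16 and 94.6% and 8.4% in LmnB1_6, against 50%, 71.6%, 86.8% and 88.4% with mCherry. At equal covered length 0 of 60 bins passed in limma, but 19 were below an unadjusted p of 0.05, all of them lower with LmnB1, against 6.34% of 1578 bins in all and 4.75% lower, with a median difference of -33.1 points against 1.05 over all bins.

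Most genes of the chromosome carried no domain. Of 270 protein-coding genes, 201 (74.4%) were at 0 in all 8 libraries, against 79.4% on other chromosomes. Genes covered over more than 50% on average in the 7 libraries other than LmnB1_6 replicate 2 numbered 25, with a median length of 133 kb, against 41.4 kb for the 201. More than 90% was covered in 24 and 21 genes in LmnB1_16, 16 and 0 in LmnB1_6, against 17 and 18 in mCherry_3, and 9 and 6 in mCherry_4. In all 8 libraries there were 0 such genes, and 157 on other chromosomes. In the 7 libraries there were 3: ASXL3, a Polycomb-associated gene, LOC105372073 and CDH7.

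The longest of these 25 genes were DCC, CCDC178, a gene of 504 kb, and L3MBTL4, a Polycomb-related gene of 461 kb. Of 18 genes used mainly in neurons 8 were touched in any library, 6 were over 50% covered on average in the 7 libraries and 10 were at 0 in all 8, against 69, 25 and 201 of all 270 genes. DCC, 1196 kb long, was covered over 99.6% and 100% in LmnB1_16, 97.4% and 21.1% in LmnB1_6, against 99.1% and 99.0% in mCherry_3, and 87.8% and 83.8% in mCherry_4. Apart from LmnB1_6 replicate 2 the libraries ran from 83.8% to 100% over DCC. DTNA, which encodes dystrobrevin alpha, and CELF4, a neuronal RNA-binding protein gene, were at 0 in all 8. Of 4 classical cadherins CDH7 and CDH19 were covered, and CDH2 and CDH20 were at 0. CDH7 was covered over 100% and 96.4% in LmnB1_16, 90.01% and 14.99% in LmnB1_6, against 97.1% in both mCherry_3 libraries and 92.1% in both mCherry_4 libraries. At equal covered length CDH7 was at 0 in both LmnB1_16 libraries and in LmnB1_6 replicate 1 and at 14.99% in replicate 2, against 77.3% and 78.0% in mCherry_3, and 92.1% in both mCherry_4 libraries. The cut to equal length fell at a log2 enrichment of 1.10 and 0.89 in LmnB1_16 and 0.92 in LmnB1_6 replicate 1. With mCherry it fell at 0.60 to 0.86, so a 0 here is not shown to be a loss of the mark. The groups did not overlap on that scale, and CDH7 was lower with LmnB1 by limma (-82.3 points, SE 7.35, adjusted p = 0.00854). Values of 0 left by the cut enter this SE and p, which thus do not measure the spread of the mark between libraries. CDH7 was the 1 gene of 37 on chromosome 18 called at equal covered length, where 0.18% of 1669 genes were called lower and 0.359% higher.

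Few of the listed genes of epithelia and of general use carried domains, as was true of the chromosome as a whole. Of all its 270 genes, 201 (74.4%) were at 0 in all 8 libraries and 69 were touched in any. All 7 desmosomal cadherins, neighbours in 1 stretch without domains, were at 0 in all 8 libraries. Of 10 clade B serpins, protease inhibitors in a cluster on the long arm, SERPINB7 was the 1 touched, at 13.4% in LmnB1_16 replicate 1. Of 20 housekeeping genes SMAD2, a mediator of TGF-beta signalling, was the 1 touched, at 6.56% in the same library. Zinc finger genes varied, with 5 of 10 touched, against 69 of all 270 genes. ZNF521 had 95.1%, 91.0%, 73.4% and 17.6% covered in the LmnB1 libraries and 97.5%, 94.4%, 73.4% and 59.6% in the mCherry libraries, and ZNF407, ZNF24, ZNF236 and ZNF532 were at 0. Of 5 laminin and melanocortin receptor genes LAMA1, a laminin chain of basement membranes, and MC2R, the corticotropin receptor, were touched. LAMA1 had 100%, 100%, 32.4% and 0 covered in the LmnB1 libraries and 97.7%, 100%, 82.5% and 18.7% in the mCherry libraries.

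**Figure D5:**
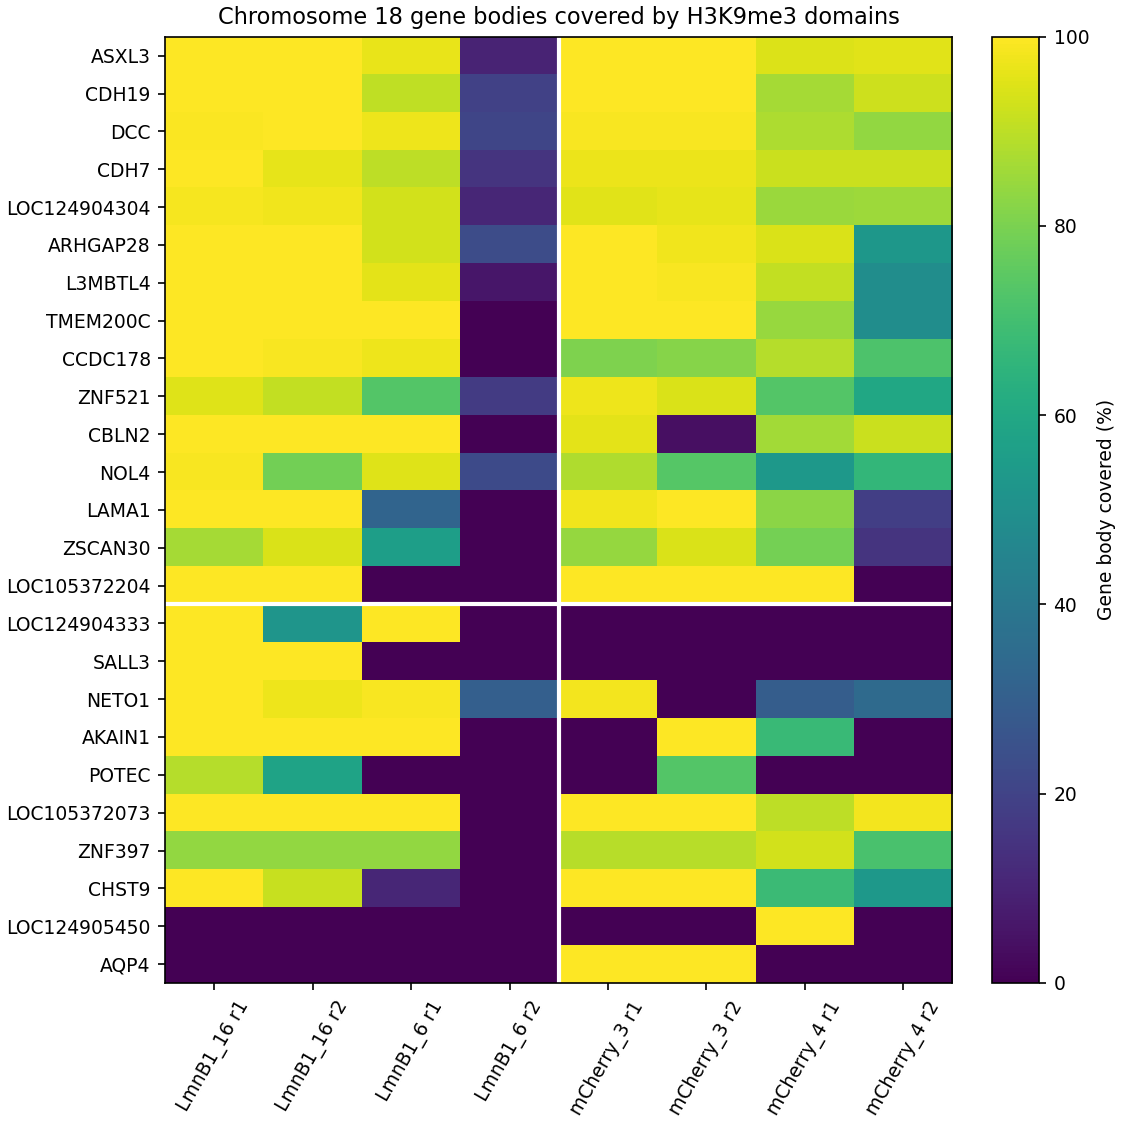
Percent of the gene body covered by H3K9me3 domains (colour) in the 4 LmnB1 libraries (left columns) and the 4 mCherry libraries (right columns). Above the white line are the genes with the highest mean over the 7 libraries other than LmnB1_6 replicate 2, and below it the 5 genes with the largest difference in each direction. Most of the upper genes are covered in the 7 libraries other than LmnB1_6 replicate 2, while SALL3 is covered in LmnB1_16 alone and AQP4 in mCherry_3 alone.

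No gene of chromosome 18 was called between the constructs in limma fitted on all genes, with 0 of 45 tested genes higher and 0 lower, against 0.221% and 0.0885% of 2260 genes called in all (adjusted p below 0.05), and 0 of the 45 at an unadjusted p below 0.05. The median difference was -4.81 points over the 45 and 6.39 over all. Its sign too rested on single libraries, at 7.67 without LmnB1_6 replicate 2 (35 of 45 positive, 12.1 over all genes) and 0.164 without mCherry_4 replicate 1 (7.05 over all). NETO1 was covered over 100% and 97.6% in LmnB1_16, 99.2% and 30.2% in LmnB1_6, against 98.4% and 0 in mCherry_3, and 29.4% and 34.8% in mCherry_4 (42.8 points, SE 24.5, limma adjusted p = 0.883). Without LmnB1_6 replicate 2 it was called higher with LmnB1 (60.7 points, SE 5.81, limma adjusted p = 0.0163), as were 2.4% of the 2336 genes tested without it, but the mCherry_3 pair, counted as its mean, was at both extremes. At equal covered length the NETO1 difference turned to -11.1 points.

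Among the other genes with the largest differences, SALL3 and AQP4 were each covered in 1 clone. SALL3 was covered over 100% in both LmnB1_16 libraries and 0 in the other 6 (50 points, SE 31.1, limma adjusted p = 0.883). AQP4 was covered over 100% in both mCherry_3 libraries and 0 in the other 6 (-40.1 points, limma adjusted p = 0.883). LOC124904333, within the body of the transcription factor gene NFATC1, was covered over 100% and 52.1% in LmnB1_16, 100% and 0 in LmnB1_6, against 0 in every mCherry library (63.0 points, SE 35.5, limma adjusted p = 0.883). Its value was above every mCherry library in 3 of 4 LmnB1 libraries. AKAIN1, an inhibitor of protein kinase A anchoring, was covered over 100%, 100%, 100% and 0 with LmnB1 and over 0, 100%, 67.7% and 0 with mCherry. POTEC, a member of a family of near-identical copies whose reads can be misplaced, was at 89.0%, 57.9%, 0 and 0 with LmnB1 and at 0, 73.4%, 0 and 0 with mCherry. CHST9, a sulfotransferase gene, was at 100%, 91.6%, 10.8% and 0 with LmnB1 and at 100%, 100%, 68.1% and 53.4% with mCherry. ZNF397 was at 83.7% in 3 LmnB1 libraries and 0 in LmnB1_6 replicate 2, against 71.5% to 93.3% with mCherry. LOC105372073 was at 100% in 3 LmnB1 libraries and 0 in LmnB1_6 replicate 2, against 90.1% to 100% with mCherry. LOC124905450 was at 100% in mCherry_4 replicate 1 and 0 elsewhere.

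Promoters inside domains in most libraries had a lower median number of CG dinucleotides than those in none. Of 365 promoter windows of 234 genes, 36 and 31 were inside domains in LmnB1_16, 23 and 4 in LmnB1_6, against 31 and 31 in mCherry_3, and 16 and 17 in mCherry_4, where inside means more than 50% of the window. The 27 windows inside domains in at least 4 of the 7 libraries other than LmnB1_6 replicate 2 had a median of 6 CG (quartiles 3 and 29). Their GC content was 50.7%. The 15 windows inside domains in 1 to 3 libraries had a median of 20 CG and a GC content of 63.0%. The 323 windows in no domain had 24 CG (quartiles 7 and 33) and 63.0%, and 22199 windows on all chromosomes had 21 CG. The quartiles of the 27 and the 323 windows thus overlapped widely. A CG, which reads the same on both strands, was found at least once in 92.6% of the 27, 98.5% of the 323 and 98.0% of all windows. The printed promoters span this range, with 2 CG in AQP4, 7 in CDH7, 15 in DCC and 59 in SALL3. The SALL3 window, marked in LmnB1_16 alone, thus held more CG than the 45 of the richest window among the 27. Windows of 1 gene can overlap, so they are not independent, and no test was made.

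Of 31 miRNA hairpins 11 (35.5%) lay in a domain in any library, near the 37.6% of the gene span listed in any. There were 6 and 6 in LmnB1_16, 8 and 3 in LmnB1_6, against 7 and 8 in mCherry_3, and 7 and 3 in mCherry_4. The hairpins of miR-1 and miR-133a, which act in muscle, and of the liver miR-122 lay in no domain of any library. Both genomic copies of miR-5583 overlap each other on opposite strands, and were in a domain in mCherry_3 replicate 2 and mCherry_4 replicate 1.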

How the data were processed

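H3K9me3 was profiled by Cut&Run in 8 libraries with 1 deposited list of domains each. Tools named in the submitters' processing notes, without roles, are SICER, deepTools, DESeq2 and DiffBind 3.0.15, and hg38 (GRCh38) is the build; an aligner was not given in the sources. Columns of the deposited lists hold H3K9me3 and input read counts, a p-value, an adjusted p-value, a score and a log2 enrichment per domain. The deposited score equals 100 times the log2 value, and the lowest log2 value of every list lies just above 0.6. Starts fall on steps of 1 kb. Counts exist only for a library's own domains, so no count model was run and lists were compared by covered bases.

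Percent covered was computed for bins of 500 kb and for gene bodies of the RefSeq gene table (GRCh38.p14). Bins and genes with a mean of at least 5% were tested genome-wide with limma 3.58.1 (R 4.3.3), clone as a random block, Benjamini-Hochberg threshold 0.05. Single values used two-sided exact permutation tests, and chromosomes of 1 library sign-flip tests. Replicates of 1 clone count as independent in these p-values. The work ran in Python 3.11.15 with scipy 1.17.1, pandas 2.3.3, matplotlib 3.10.9 and numpy 2.4.6, with functions tested on simulated data.

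The members and gene lists were chosen with earlier results of these data known. Named were the longest stretches per class, the 3 bins and 5 genes with the largest difference in each direction, called genes, the 5 longest merged domains, and list members. Stretches and genes of single clones and of empty stretches were added after their values were seen. The input sample has no list and was not analysed here.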

Additional observations from a re-analysis of the deposited data

Results flagged for a closer look

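In each of the following results LmnB1_6 replicate 2 stood apart from the other 3 LmnB1 libraries, with a gap to the nearest of them that took up most of the range. Chance alone sets a sample apart in this way in about 1 group of 20, and all of these values come from the same library. It covered 3.19 Mb of chromosome 18, of which 2.59 Mb were on the long arm. Its covered percent was 30.2 over NETO1 and 0 over AKAIN1, LOC105372073 and ZNF397. It was 16.3 in the merged domain from 64207001 around CDH7 and CDH19, 15.8 in that from 51355001 around DCC, 11.3 in that from 70752001 around CBLN2 and NETO1, and 10.8 in that from 77312001 around SALL3.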

How the results depend on the processing

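Of the values compared under other settings, those below changed direction, passed or lost a threshold, or moved. The cause was not tested. At equal covered length the bins and genes of chromosome 18 at an unadjusted p below 0.05 in limma numbered 19 of 60 and 6 of 37 (6.34% of all bins and 4.37% of all genes), with the highest-scoring 50% of each list 21 of 50 and 5 of 29 (5.21% and 3.45%), and minus the library mean 3 of 73 and 1 of 45 (5.1% and 4.16%), against 0 and 0 (3.17% and 3.01%). With 1 library left out they ranged from 0 to 1 and from 0 to 4. Called genes numbered 1 lower at equal covered length and from 0 to 1 higher with a library left out, that 1 (NETO1) without LmnB1_6 replicate 2. With a library left out, the difference in covered length ranged from -2.86 to 4.35 Mb, in short-arm length from -0.823 to 0.808 Mb and in long-arm length from -2.14 to 3.54 Mb, each positive only without LmnB1_6 replicate 2. Genes over 90% covered in all libraries numbered from 0 to 3. With the highest-scoring 50%, the difference in longest domain was -264 kb, in relative count ratio 0.0277 and in relative reads per kb 0.0289.

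For chromosome 18 minus chromosome 19, covered percent was -7.01 at equal covered length and -9.00 with the highest-scoring 50%, and ranged from -0.322 (without mCherry_4 replicate 2) to 2.98 with a library left out. The log2 ratio was -0.11 with all 8 libraries taken singly (passing) and ranged from -0.13 to -0.10, and median length was -0.714 kb with the highest-scoring 50%. Minus chromosome 20, covered percent was -3.92 at equal covered length and -5.70 with the highest-scoring 50%, and ranged from 2.98 to 6.18, and the log2 ratio was 0.047 with the highest-scoring 50%. Minus all other chromosomes, covered percent was 8.50 with 8 libraries singly (passing) and -2.95 with the highest-scoring 50%, and ranged from 7.36 to 10.6. The log2 ratio was -0.056 with 8 singly (passing) and ranged from -0.069 to -0.044, and median length ranged from 6.63 to 14.96 kb.

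Stretches in all LmnB1 and no mCherry libraries summed to 0 kb at equal covered length, with the highest-scoring 50% and in merged domains, and from 21 to 108 kb with a library left out. Those in all libraries summed to 18, 0 and 28 kb in these settings, and from 1622 to 9884 kb. Those in all mCherry and no LmnB1 libraries summed to 715, 669 and 0 kb, to 2 kb with domains under 10 kb apart joined, to 13 kb with domains of at least 10 kb, and from 5 to 175 kb (without LmnB1_6 replicate 1). The bin from 34000001 differed by -14.7 points at equal covered length, NETO1 by -11.1 and, with the highest-scoring 50%, -18.1, and LOC105372073 by -40.8 to 3.73 with a library left out, positive without LmnB1_6 replicate 2.

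Correlations between clones of the deviations from the clone means lay between -0.06 and 0.24 over bins. A correlation over bins does not measure a shift shared by all bins. Over the genome replicate 2 covered less than replicate 1 in every clone. It covered 534 against 610 Mb in LmnB1_16, 357 against 646 in LmnB1_6, 527.8 against 528.7 in mCherry_3 and 320 against 429 in mCherry_4. Whether replicate numbers pair the samples was thus not settled. With a replicate block 0 bins and 0 genes of chromosome 18 were called in limma.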
